A study of Homo sapiens with 6 samples.

Results

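Complement and coagulation genes were examined in EndoC-βH1, a human pancreatic beta cell line that the labels spell EndoCBH1, after siRNA against the homeobox transcription factor MNX1. Of the 10 genes chosen for the set (C4A, C4B, C4BPA, C5, C3, CFI, F10, SERPINF2, SERPINA1 and PRRG2), 8 have a row among the 16792 genes of the table, and C3 and CFI were not analysed here. The genes were chosen by earlier results of the same knockdown comparison, so their differences, and the limma calls among them, are given as a description and are no independent test. Cells received either siRNA against MNX1 (siMNX1, 3 libraries, genotype given as MNX1 knock down) or a non-targeting siRNA (siNT, 3 libraries, genotype given as WT). All 6 libraries come from 1 cell line, and the labels give no siRNA sequence, dose, time after transfection or culture, so the spread that the p-values measure may be technical. By its title the study concerned the control of somatostatin by MNX1 through PERCC1.

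Complement is a cascade of plasma proteins made mainly by the liver. C4, once cleaved, binds to a target surface through a reactive thioester and helps to build the enzyme that splits C3, and the cleavage of C5 then starts the membrane attack complex and releases a small inflammatory peptide. C4BPA is the alpha chain of C4-binding protein, which holds the cascade back by binding the active C4 fragment. F10 encodes coagulation factor X, which converts prothrombin to thrombin, and SERPINF2 encodes alpha-2-antiplasmin, the main plasma inhibitor of plasmin, the enzyme that dissolves fibrin. SERPINA1 encodes alpha-1-antitrypsin, an inhibitor of neutrophil elastase, and PRRG2 encodes a membrane protein with a Gla domain, the calcium-binding module that factor X also carries. Many of these transcripts are also found in pancreatic endocrine cells.

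C4A and C4B are near-identical neighbours, and the sequences below show how little separates their reads. In GENCODE 29 on GRCh38, C4A lies on chromosome 6 from 31982024 to 32002681 and C4B from 32014795 to 32035418, both on the plus strand. Their principal transcripts, C4A-243 and C4B-202, have 41 exons each. Over 5232 coding bases, the stop codon left out, the reference copies differ at 13 positions, an identity of 99.8%. The densest stretch lies within 1 exon, at coding bases 3328 to 3387, counted from the first base of the start codon. It holds 5 of the 13 differences, which fall in the codons of the residues that set the C4A and C4B isotypes. The capitals mark the differing bases.
C4A, chr6:31996052-31996111, plus strand: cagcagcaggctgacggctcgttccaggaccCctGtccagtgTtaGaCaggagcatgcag
C4B, chr6:32028790-32028849, plus strand: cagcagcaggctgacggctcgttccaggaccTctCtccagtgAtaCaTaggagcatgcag
From C4A to C4B these are C3359T, G3362C, T3370A, G3373C and C3375T. Of all stretches of 75 bases in the C4A transcript, 90.5% also occur in a transcript of another gene, and for C4B the share is 91.0%. For C4BPA, C5, F10, SERPINF2, SERPINA1 and PRRG2 the same search found 0 shared stretches. The split of reads between C4A and C4B is therefore uncertain, and for counts and fold changes their sum is also given.

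Levels are the authors' normalized counts, with every ± an SD over the 3 libraries of a group. Each library summed to between 18436560 and 18704645 with MNX1 siRNA and to between 18406479 and 18600819 with non-targeting siRNA after normalization, and the depth before it is unknown. In bulk RNA, fewer cells of a kind and less RNA per cell cannot be told apart. MNX1 itself averaged 1781 ± 92.4 in siMNX1 cells and 2020 ± 28.1 in siNT cells, and was below siNT in every siMNX1 library. Its log2 fold change of -0.18 was not called by limma (adjusted p = 0.116). The first principal component, with 29.4% of the variance, set the groups apart. On it the siMNX1 libraries lay at 18.1 to 23.4 and the siNT libraries at -22.8 to -20.0. On the second principal component, with 20.1% of the variance, siMNX1 replicates 1 and 2 lay at -29.4 and 31.7, while the other 4 libraries lay between -2.40 and 2.66. All 10 listed beta cell markers were measured, with a summed level of 351755 to 366161 in the siMNX1 libraries and 280814 to 293045 in the siNT libraries. Most of this sum was CHGA, with means of 208161 in siMNX1 cells and 150359 in siNT cells, and INS, with 125386 and 110539. The median log2 fold change of the 10 was 0.07. Limma called 3 of these 10 higher (CHGA, MAFA and PCSK1) and 2 lower (G6PC2 and IAPP), with log2 fold changes of 0.47 for CHGA and -1.84 for IAPP, and the calls of MAFA, G6PC2 and IAPP ended under at least 1 alternative. PCSK1 and INS were named after their values were seen and were not run under the alternatives. Of 14 hepatocyte markers 8 were measured, with sums of 11242 to 12820 in siMNX1 cells and 10222 to 11149 in siNT cells. Most of this sum was TTR, with means of 7403 in siMNX1 cells and 7422 in siNT cells, and APOC3, with 3240 and 2546. ALB, TF, ASGR1, AHSG and FGB were low, with ALB at 20.2 in siMNX1 cells and 16.1 in siNT cells. With MNX1 siRNA the means of ALB, TF and ASGR1 were higher and those of AHSG and FGB lower. These genes were named after their values were seen and were not run under the alternatives. Of 10 macrophage and leukocyte markers only CD68 was measured, with 1120 to 1377 in siMNX1 cells and 1352 to 1546 in siNT cells, and the other 9 were not analysed here. The part of these shifts in the results below was not tested.

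Of the 8 measured genes, 6 were called higher and 1 lower with MNX1 siRNA by limma at an adjusted p of at most 0.05, where 1.99% and 1.33% of all genes were called higher and lower. The siMNX1 libraries were wholly above the siNT libraries for 6 of the 8 genes and wholly below for 1, against 12.0% and 12.1% of all genes. C4A and C4B, whose split of reads is uncertain, both count among the 6 called higher. Nothing is read from these shares, since the same comparison chose the genes. The C4 genes, C4BPA and SERPINF2 were 1.78-fold to 2.63-fold higher, F10, SERPINA1 and PRRG2 had means 15.5% to 33.7% higher, and C5 was lower at 0.485-fold. The median log2 fold change of the 8 was 0.62, and that of all genes was -0.0004.

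**Figure D1:**
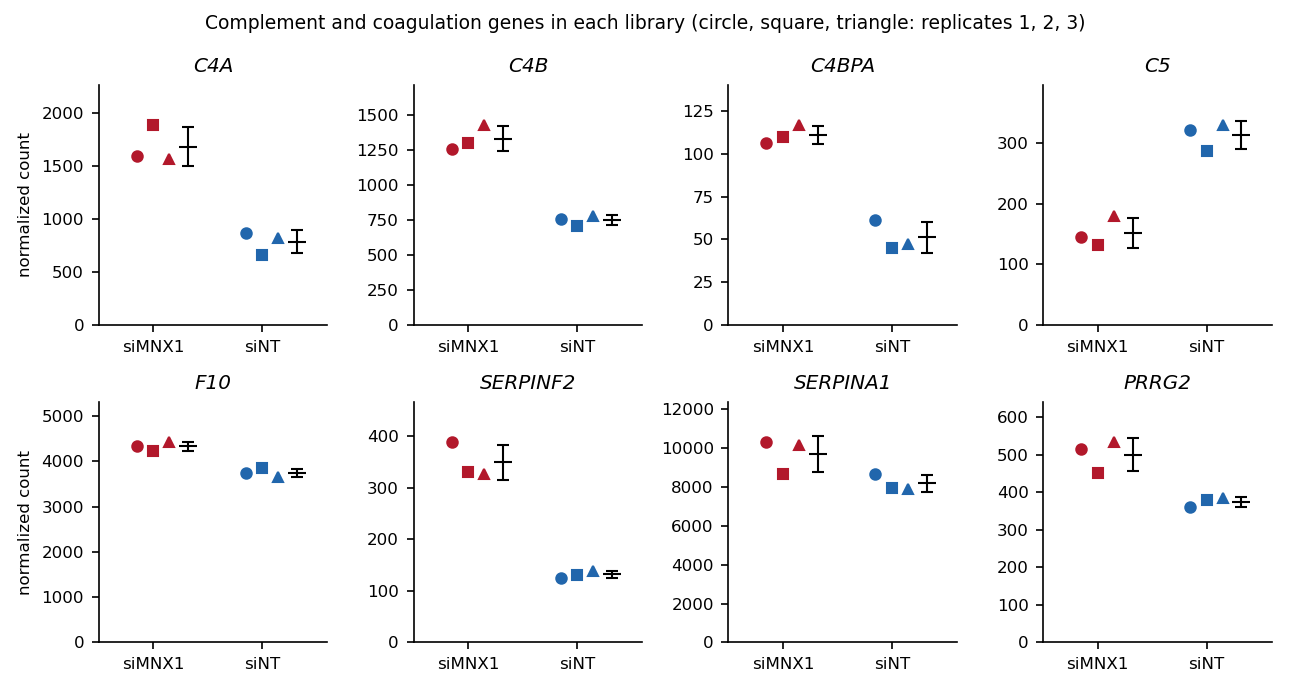
Normalized counts of the 8 measured genes in each library, siMNX1 left and siNT right, with the mean and SD (n = 3) as a black bar beside the points. The axes start at 0. The groups are apart in every panel but that of SERPINA1, where siMNX1 replicate 2 (8658) lies just under siNT replicate 1 (8694).

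The C4 genes were higher with MNX1 siRNA. C4A had 1591, 1887 and 1564 normalized counts in siMNX1 replicates 1 to 3, against 867, 661 and 823 in siNT replicates 1 to 3. The highest siNT library was well under the lowest siMNX1 library, and siMNX1 replicate 2 was the highest of all. C4B had 1257, 1297 and 1429 in siMNX1 replicates 1 to 3 and 757, 707 and 776 in siNT replicates 1 to 3, again with no overlap. The log2 fold changes were 1.10 (SE 0.110) for C4A and 0.83 (SE 0.071) for C4B.

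Summed, C4A and C4B had 2848, 3185 and 2993 in siMNX1 replicates 1 to 3, against 1625, 1368 and 1599 in siNT replicates 1 to 3. The sum averaged 3008 ± 169 in siMNX1 cells and 1531 ± 141 in siNT cells, a 1.97-fold difference (log2 fold change 0.98, 95% interval 0.81 to 1.15). C4A made up 55.8% ± 3.51 of the sum in siMNX1 cells and 51.1% ± 2.56 in siNT cells. These shares overlapped between the groups, with 52.2% in siMNX1 replicate 3 and 53.4% in siNT replicate 1 (p = 0.2 by a two-sided exact permutation test, which with 3 libraries a side cannot go below 0.1). This test could not have called a shift at 0.05 in this design.

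C4A overlaps STK19 on the same strand by 303 exon bases, and each C4 gene overlaps a short antisense gene, C4A-AS1 or C4B-AS1, by 520 exon bases. How the counting used strand is not given in the sources used here, so reads of a C4 gene and its antisense partner cannot be told apart. STK19, a nuclear protein gene, averaged 451 ± 40.3 in siMNX1 cells and 409 ± 32.3 in siNT cells and was not called (limma, adjusted p = 0.489). Each antisense gene averaged 16.2 ± 6.37 in siMNX1 cells and 6.96 ± 1.17 in siNT cells and was not called (limma, adjusted p = 0.199). Other measured neighbours within 50 kb of the C4 genes were NELFE, SKIV2L and DXO, with log2 fold changes of 0.03, 0.05 and -0.03, of which limma called 0 (0 with an unadjusted p under 0.05).

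C4BPA, the inhibitor of C4, was also higher, from a low level. It had 107, 110 and 117 normalized counts in siMNX1 replicates 1 to 3, against 61.6, 44.8 and 47.3 in siNT replicates 1 to 3. The siMNX1 libraries lay close together, and siNT replicate 1 stood above the other siNT libraries without reaching them. The means were 111 ± 5.35 in siMNX1 cells and 51.3 ± 9.06 in siNT cells, with a log2 fold change of 1.11 (SE 0.173). C4BPA lies on chromosome 1 from 207104262 to 207144972, plus strand, next to C4BPB, which encodes the beta chain of the same protein. C4BPB, singled out after its values were seen, averaged 24.4 ± 3.64 in siMNX1 cells and 13.2 ± 0.397 in siNT cells. C4BPB had a log2 fold change of 0.83 and was not called (limma, adjusted p = 0.152).

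C5 was the gene that was lower. It had 145, 132 and 179 normalized counts in siMNX1 replicates 1 to 3, against 321, 287 and 330 in siNT replicates 1 to 3. Every siMNX1 library was under every siNT library, and siMNX1 replicate 3 was the highest of its group. The means were 152 ± 24.4 in siMNX1 cells and 313 ± 22.6 in siNT cells, a log2 fold change of -1.05 (SE 0.133). C5 lies on the minus strand of chromosome 9 (120952335 to 121050276) and spans 97.9 kb with 41 exons. Its measured neighbours within 50 kb, TRAF1 and CNTRL, had log2 fold changes of -0.19 and 0.07, and limma called 0 of them (0 with an unadjusted p under 0.05). C4 and C5 are related proteins that act in succession in the cascade, and their transcripts differed in opposite directions.

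SERPINF2 had the largest fold change of the 8 genes. It had 389, 331 and 327 normalized counts in siMNX1 replicates 1 to 3, against 125, 131 and 139 in siNT replicates 1 to 3. The groups were far apart, and siMNX1 replicate 1 was the highest. The means were 349 ± 34.6 in siMNX1 cells and 132 ± 6.65 in siNT cells (log2 fold change 1.40, SE 0.112, a 2.63-fold difference on that scale). SERPINF2 lies on chromosome 17 from 1742836 to 1755268, plus strand, beside SERPINF1, which encodes a related serpin that does not inhibit proteases. SERPINF1 averaged 16.7 ± 3.85 in siMNX1 cells and 12.6 ± 3.81 in siNT cells and was not called (limma, adjusted p = 0.601). The neighbours TLCD2, MIR22HG, WDR81 and SMYD4 had log2 fold changes of 0.09, 0.24, 0.03 and -0.22, and limma called 0 of these 4, with 1 (SMYD4) at an unadjusted p under 0.05.

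F10 was abundant and differed little. It had 4336, 4228 and 4433 normalized counts in siMNX1 replicates 1 to 3, against 3737, 3849 and 3665 in siNT replicates 1 to 3. The groups did not overlap, and both were tight, with a coefficient of variation of 2.36% in siMNX1 cells and 2.47% in siNT cells. The log2 fold change was 0.21 (95% interval 0.11 to 0.31), a 1.16-fold difference. F10 lies on chromosome 13 (113122814 to 113149529, plus strand), next to F7, which encodes factor VII, the enzyme that activates factor X together with tissue factor. F7, named after its values were seen, averaged 1346 ± 119 in siMNX1 cells and 1229 ± 19.0 in siNT cells and was not called (limma, adjusted p = 0.387). F10 shares 98 exon bases with an antisense transcript, AL137002.2, which had a log2 fold change of -0.42 and was not called (limma, adjusted p = 0.303). PCID2, on the opposite strand within 50 kb, averaged 1513 ± 57.7 in siMNX1 cells and 1718 ± 41.8 in siNT cells (log2 fold change -0.18, limma, adjusted p = 0.111). MCF2L and the pseudogene KARSP2 had log2 fold changes of -0.10 and -0.05. Of the 5 measured neighbours of F10, 0 were called by limma and 1 (PCID2) had an unadjusted p under 0.05.

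PRRG2 had 515, 451 and 535 normalized counts in siMNX1 replicates 1 to 3, against 360, 379 and 384 in siNT replicates 1 to 3. The groups were apart, and siMNX1 replicate 2 came nearest to the siNT libraries. The log2 fold change was 0.41 (95% interval 0.21 to 0.61). PRRG2 lies on chromosome 19 from 49580646 to 49591015, plus strand. The body of NOSIP overlaps it on the opposite strand with 0 shared exon bases, and NOSIP averaged 1012 ± 44.6 in siMNX1 cells and 1045 ± 74.9 in siNT cells. Of the other proline-rich Gla genes, PRRG1 averaged 113 ± 19.3 in siMNX1 cells and 149 ± 15.3 in siNT cells, and PRRG4 averaged 364 ± 32.8 in siMNX1 cells and 406 ± 12.8 in siNT cells. Both were below siNT in every siMNX1 library, with log2 fold changes of -0.41 and -0.16 that limma did not call (adjusted p = 0.200 and 0.402). PRRG1 and PRRG4 were singled out after their values were seen.

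The calls of F10 and PRRG2 ended, by the same fit, when any library but siMNX1 replicate 2 was left out. Over all alternatives the log2 fold changes stayed between 0.19 and 0.23 for F10 and between 0.36 and 0.49 for PRRG2.

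SERPINA1 was the most abundant of the 8 by count and was not called. It had 10324, 8658 and 10184 normalized counts in siMNX1 replicates 1 to 3, against 8694, 7939 and 7908 in siNT replicates 1 to 3. The groups overlapped, with siMNX1 replicate 2 inside the siNT range. The means were 9722 ± 924 in siMNX1 cells and 8180 ± 445 in siNT cells, with a log2 fold change of 0.25 (95% interval 0.09 to 0.40). Without siMNX1 replicate 2, which lay at 1 end of the second principal component, the log2 fold change was 0.33 and passed the threshold. SERPINA1 lies on the minus strand of chromosome 14 from 94376747 to 94390693.

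**Figure D2:**
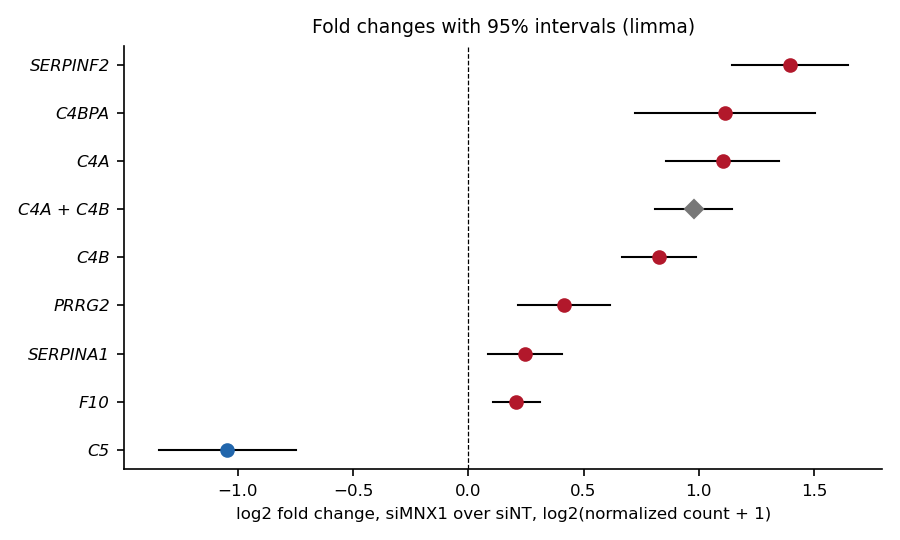
Log2 fold change of siMNX1 over siNT for the 8 genes (circles) and for C4A and C4B summed (diamond), with 95% intervals from limma. SERPINF2 is at 1.40, C4BPA, C4A and C4B lie between 0.83 and 1.11, PRRG2, SERPINA1 and F10 lie between 0.21 and 0.41, and C5 is at -1.05.

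Levels were then compared between genes as normalized counts per kilobase of the principal transcript. F10 led with 2856 ± 67.4 per kb in siMNX1 cells and 2472 ± 61.2 in siNT cells, and SERPINA1 followed with 2752 ± 262 in siMNX1 cells and 2316 ± 126 in siNT cells. The ranges of F10 and SERPINA1 over the libraries overlapped in both groups. With C4A and C4B taken singly, PRRG2 came next with 356 ± 31.2 per kb in siMNX1 cells and 267 ± 9.09 in siNT cells. C4A stood at 308 ± 32.9 per kb in siMNX1 cells, overlapping PRRG2, and at 144 ± 19.9 in siNT cells, apart from PRRG2. C4B stood at 245 ± 16.6 per kb in siMNX1 cells and 138 ± 6.57 in siNT cells, where it overlapped C4A. No level per kb was computed for the C4 sum. The places of C4A and C4B beside PRRG2 therefore rest on the uncertain split of reads, and nothing is read from them.

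The lowest levels changed places. SERPINF2 had 153 ± 15.2 per kb in siMNX1 cells and 57.6 ± 2.91 in siNT cells. C5 had 27.8 ± 4.46 per kb in siMNX1 cells and 57.2 ± 4.14 in siNT cells, and C4BPA had 49.5 ± 2.39 per kb in siMNX1 cells and 22.9 ± 4.04 in siNT cells. On these transcripts the ranges of C5 and SERPINF2 overlapped in siNT cells, and C5 was the lowest of the 8 in siMNX1 cells. With the shortest coding transcript SERPINF2 would stand at 238 per kb in siMNX1 cells and 90.0 in siNT cells, above C5 in both groups. The transcript chosen also decides the place of SERPINA1, whose protein-coding transcripts run from 1450 to 3532 bases. With the shortest of them it would stand at 6705 per kb in siMNX1 cells and 5642 in siNT cells, above F10.

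**Figure D3:**
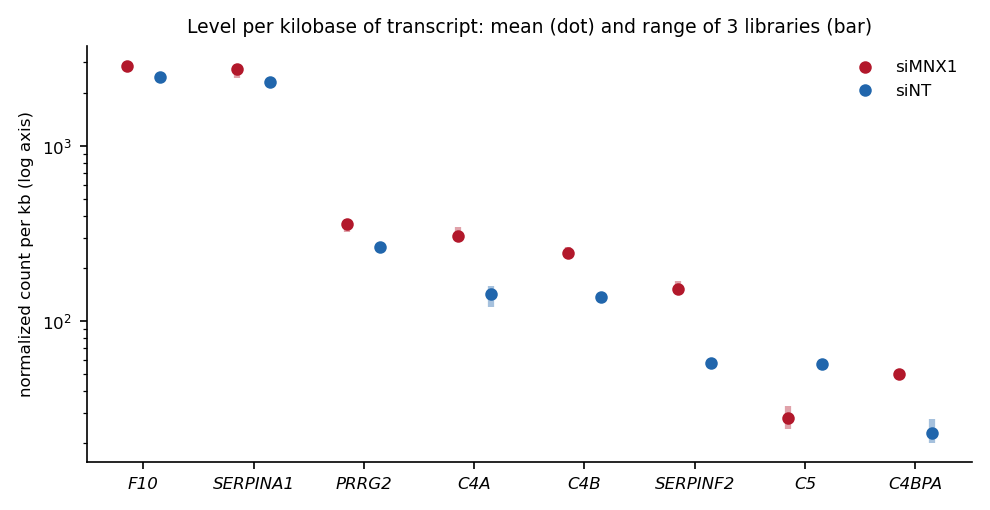
Normalized counts per kilobase of the principal transcript on a log axis, with the mean (dot) and the range of 3 libraries (bar), siMNX1 left of siNT for each gene. F10 and SERPINA1 lie highest in both groups, and C5 and C4BPA trade places between the groups. C4A and C4B are shown singly, with an uncertain split of reads.

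Other listed genes of these cascades were then counted. The members, 6 of them called higher and 1 lower in the same comparison, were left out. The counts therefore do not describe the cascades as a whole, and nothing is read from their shares. In 11 lists of complement, coagulation, fibrinolysis, Gla and serpin genes taken from textbook knowledge, 123 genes other than the members were listed and 51 were measured. Limma called 0 of the 51 higher and 3 lower (5.88%), where 1.99% of all genes were called higher and 1.33% lower. At an unadjusted p under 0.05 there were 8 higher and 7 lower. The share of all genes at that unadjusted cut is not given here. Nothing is therefore read from the unadjusted counts of these lists or of the neighbours above. Their median log2 fold change was -0.03. For 7 of the 51 the siMNX1 libraries were wholly above the siNT libraries, and for 10 wholly below, against 12.0% and 12.1% of all genes.

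Of 3 measured terminal pathway genes 1 was called lower and 0 higher, and unadjusted also 1 lower and 0 higher. C8A, which encodes a pore-forming chain of the membrane attack complex that C5 cleavage starts, fell to 179 ± 19.0 in siMNX1 cells, against 293 ± 35.9 in siNT cells (log2 fold change -0.71, limma, adjusted p = 0.018). That call ended with no variance trend and without siMNX1 replicate 1 or 3 or siNT replicate 2 or 3, with adjusted p up to 0.0767 over the alternatives. Of 4 classical and lectin pathway genes 0 were called (0 unadjusted). C1RL, a protease related to C1r, averaged 553 ± 103 in siMNX1 cells and 504 ± 60.9 in siNT cells, and MASP2, the lectin pathway protease that cleaves C4, averaged 57.1 ± 10.2 in siMNX1 cells and 65.9 ± 5.40 in siNT cells. The 1 measured alternative pathway gene, CFP, which encodes properdin, averaged 14.4 ± 2.54 in siMNX1 cells and 12.4 ± 7.34 in siNT cells.

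Of 9 complement regulators limma called 0, with 3 higher and 1 lower unadjusted. CLU, which encodes clusterin, averaged 9979 ± 355 in siMNX1 cells and 10281 ± 355 in siNT cells, and CD46, a membrane cofactor for the breakdown of C4 and C3 fragments, averaged 6649 ± 305 in siMNX1 cells and 6086 ± 350 in siNT cells (limma, adjusted p = 0.255). Of 3 complement receptor genes limma called 0 (0 unadjusted), and CALR and C1QBP, both of which encode proteins that bind C1q, had log2 fold changes of -0.04 and -0.08.

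Of 9 genes of coagulation factors and their transport limma called 0, with 1 higher and 1 lower unadjusted. LMAN1 and MCFD2, which form the receptor that carries factors V and VIII out of the endoplasmic reticulum, had log2 fold changes of 0.04 and 0.10. Of 5 anticoagulant genes limma called 0, with 2 higher and 0 lower unadjusted. SERPINA10, an inhibitor of activated factor X, averaged 985 ± 111 in siMNX1 cells and 852 ± 36.2 in siNT cells (limma, adjusted p = 0.255), and PROC, which encodes protein C, had a log2 fold change of -0.06. F2RL1, the 1 thrombin-receptor family gene measured, had a log2 fold change of -0.19 (limma, adjusted p = 0.357).

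Of 7 fibrinolysis genes 2 were called lower and 0 higher, with 1 higher and 2 lower unadjusted. The 1 higher was SERPINI1, named after its values were seen, which encodes neuroserpin, an inhibitor of tissue plasminogen activator. SERPINI1 averaged 5372 ± 179 in siMNX1 cells and 4554 ± 297 in siNT cells, with no overlap (log2 fold change 0.24, limma, adjusted p = 0.0516). S100A10, a cell-surface partner of annexin A2 in plasmin formation, fell to 603 ± 10.1 in siMNX1 cells, against 836 ± 17.4 in siNT cells (log2 fold change -0.47, limma, adjusted p = 0.00456), and it stayed called under each alternative run. ENO1, a glycolytic enzyme that can also bind plasminogen at the cell surface, fell to 9605 ± 929 in siMNX1 cells, against 12261 ± 871 in siNT cells (log2 fold change -0.35, limma, adjusted p = 0.0354). The ENO1 call ended with no variance trend and without siMNX1 replicate 2 or 3 or any siNT replicate, with adjusted p up to 0.173. Of 7 genes of Gla proteins and the vitamin K cycle limma called 0, with 0 higher and 2 lower unadjusted. FURIN and VKORC1, a processing protease and the vitamin K reductase, had log2 fold changes of 0.03 and -0.004. Of 2 other serpins of clades A and F limma called 0, with 1 higher unadjusted, and SERPINA6, which encodes the cortisol carrier, averaged 415 ± 40.2 in siMNX1 cells and 353 ± 8.80 in siNT cells (limma, adjusted p = 0.230).

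**Figure D4:**
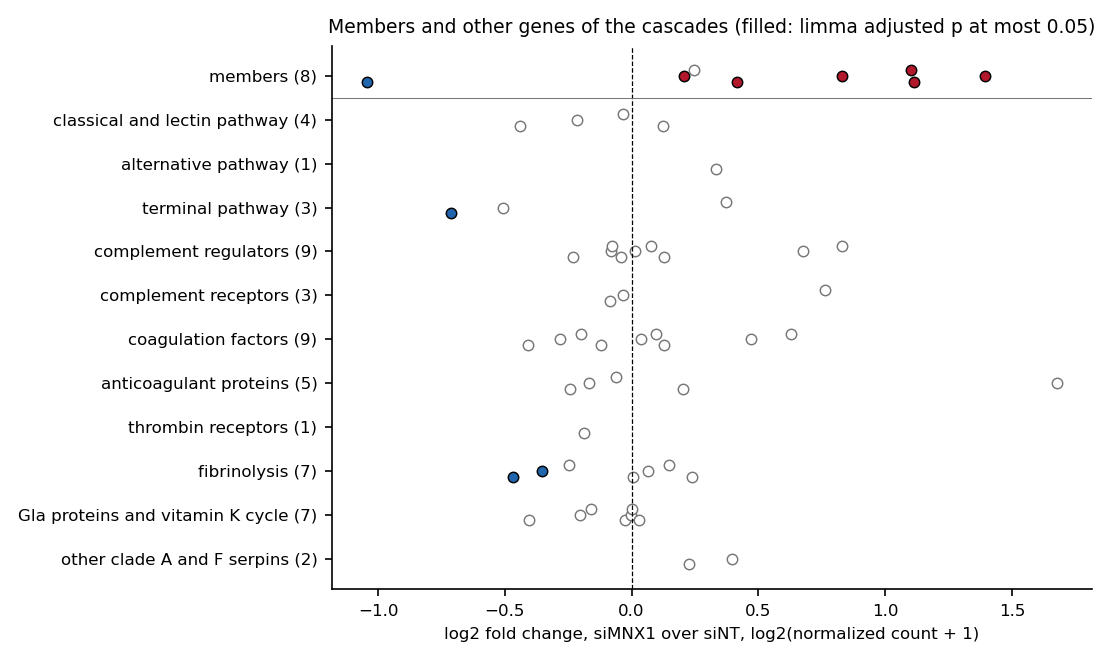
Log2 fold change of siMNX1 over siNT for the 8 genes of the set (top row) and for 51 other measured genes in 11 lists, with the number measured in brackets. Filled points have a limma adjusted p of at most 0.05: outside the top row these are C8A, S100A10 and ENO1, all lower. The open point farthest to the right is SERPIND1, which averaged 22.4 ± 6.12 in siMNX1 cells and 6.94 ± 4.01 in siNT cells.

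Liver and cytokine genes were set beside these results. Of 8 measured hepatocyte markers limma called 1 higher and 0 lower, with 3 higher and 0 lower unadjusted. APOA1, which encodes the main protein of high-density lipoprotein, rose to 1144 ± 47.4 in siMNX1 cells, against 657 ± 69.1 in siNT cells (log2 fold change 0.80, limma, adjusted p = 0.0012). Of 9 measured genes of the acute phase and of cytokine signalling limma called 0, with 1 higher and 1 lower unadjusted. STAT3, the transcription factor that carries interleukin-6 signals, averaged 2038 ± 91.9 in siMNX1 cells and 1840 ± 80.2 in siNT cells (limma, adjusted p = 0.213), and NFKB1 had a log2 fold change of 0.03. Of 5 measured markers of other pancreatic cells limma called 2 higher and 0 lower. These were SST and HHEX, with log2 fold changes of 1.96 (limma, adjusted p = 3.97e-06) and 3.16 (limma, adjusted p = 9.62e-06).

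The genes nearest in pattern were listed for each called gene, by the root mean square difference of mean-centred log2 values over the 6 libraries among genes with a symbol and a mean of at least 50. Nearest to C5 were RBP4, the retinol carrier, and GATA5, at 0.10 and 0.16. Nearest to SERPINF2 were RGS4 and TDO2, at 0.07 and 0.10. For C4A these were CYP4F3 and NKX6-3 (0.10 and 0.12), for C4B ERICH6-AS1 and GPBAR1 (0.08 and 0.08), and for C4BPA PRSS12 and NWD1 (0.09 and 0.11). For F10 they were PHF23 and SCGN (0.02 and 0.02), and for PRRG2 they included PLA2G6 (0.04). No other gene of the set was among these nearest genes, and with so few listed for each, nothing is read from that.

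Promoters of the set were then searched for homeodomain letters, since MNX1 is a homeodomain protein and such proteins bind TAAT. RefSeq (GRCh38.p14) gave 7 promoter entries for 5 of the 8 genes, each of 300 bases, from 250 before to 50 after a start. The letters TAATTA occurred, on either strand, in 1 of the 7 entries and in 4.84% of 35116 promoters. The shorter TAAT, which also lies inside TAATTA, occurred in 50.2% of all promoters. The letters GTTAAT, which contain TAAT, were searched as a half-site of another factor, HNF1. GTTAAT occurred in 3 of the 7 entries (C4BPA, C5 and SERPINA1, 1 each) and in 6.88% of all promoters. TATAAA, searched as a TATA box, occurred in 0 of 7 and 11.5%. The entry with TAATTA is that of C5 at its own annotated start. SERPINF2, another low-level gene, had no entry. The C5 entry is shown beside that of C4BPA, since these low-level genes with an entry differed in opposite directions. Both are rich in A and T, with 37.0% G and C for C5 and 42.3% for C4BPA. Capitals mark TAAT on either strand, 7 matches in C5 and 2 in C4BPA, some of them overlapping. No number of matches expected at this base content was computed, so nothing is read from these numbers.
C5, chr9:121050226-121050525, minus strand: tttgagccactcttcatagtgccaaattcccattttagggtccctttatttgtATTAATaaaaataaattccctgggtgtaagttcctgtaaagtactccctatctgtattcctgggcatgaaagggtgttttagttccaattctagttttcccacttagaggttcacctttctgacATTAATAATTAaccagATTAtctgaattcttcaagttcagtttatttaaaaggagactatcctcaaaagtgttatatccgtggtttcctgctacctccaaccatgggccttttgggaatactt
C4BPA, chr1:207103983-207104282, plus strand: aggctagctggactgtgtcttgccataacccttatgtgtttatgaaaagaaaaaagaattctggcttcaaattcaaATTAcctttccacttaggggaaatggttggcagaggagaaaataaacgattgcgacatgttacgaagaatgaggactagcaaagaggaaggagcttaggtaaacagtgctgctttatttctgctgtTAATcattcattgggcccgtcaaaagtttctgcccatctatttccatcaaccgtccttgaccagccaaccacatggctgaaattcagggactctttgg
The second C5 entry, at chr9:121074816-121075115, held 0 TAAT matches and 69.3% G and C. PRRG2 held 4 TAAT matches, F10 held 0, and the entries of SERPINA1 held 0 and 1. These matches describe the letters in the windows, and binding was not measured.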

How the data were processed

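The authors deposited 1 table for the 6 RNA-seq libraries, whose signal is normalized counts with decimals, 0 or above. Per the labels' protocols libraries were made with the Ovation Solo kit and ribosomal RNA was depleted. The submitters' processing notes name GRCh38, the aligner STAR 2.7.6a and the quantifier RSEM 1.3.1. They also name DESeq2 1.26.0, DESeq and R 3.6.3, with no order given. Annotation, gene filter and strand setting: not given in the sources used here.

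Values were analysed as log2(value + 1), which understates changes of low genes, with limma 3.58.1 (R 4.3.3), a variance trend and Benjamini-Hochberg adjustment over all 16792 genes at a threshold of 0.05. The procedure was run on simulated data drawn from the variance model of the same fit. That run does not show whether the model suits these counts. C4A and C4B were also summed before the same fit. Symbols came from the table for 14738 genes and from a gene table for 417. Positions, transcript lengths and shared stretches came from GENCODE 29, with Python 3.11.15, numpy 2.4.6 and pandas 2.3.3. No counting interval was possible without depth. The members and lists were chosen with earlier results of these data known. Genes named from each list were up to 4 called genes or, with none called, the most abundant 2; others are marked where named. MNX1, all members and the nearest 2 genes of each called member were also named, except 1 gene that is not reported here. No value above 0 was identical for the same gene between libraries. Replicate numbers are not stated to mark shared cultures. Alternatives were other pseudocounts, a minimum mean of 50, other scalings, other variance models, a replicate block, each library left out, and other transcript lengths, the last chosen after the values were seen.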

Additional observations from a re-analysis of the deposited data

How the results depend on the processing

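C4A, C4B, C4BPA, C5, SERPINF2 and the C4 sum kept their direction and their side of the threshold under all alternatives run, with log2 fold changes of 0.99 to 1.18, 0.77 to 0.87, 1.03 to 1.25, -1.17 to -0.95, 1.31 to 1.44 and 0.90 to 1.02. F10 and PRRG2 also lost their calls with no variance trend and with the replicate block. The call of C4BPA came near the threshold, with a limma adjusted p of up to 0.04997, without siNT replicate 3. Genes called higher and lower over the whole table numbered 131 and 60 with no variance trend, 162 and 75 with the replicate block, and between 133 and 257 higher and between 64 and 179 lower with 1 library left out. Same-numbered libraries deviated with correlations of -0.08, -0.08 and -0.07, so the numbers were not taken as pairs. Pathway genes called higher numbered 1 with a pseudocount of 5, a minimum mean of 50, a robust variance model or no variance trend, and 0 to 1 with 1 library left out. Those called lower numbered 1 with no variance trend and 1 to 2 with 1 library left out. Among genes not called, the log2 fold change reversed without 1 library for C1RL (-0.0217 to 0.226), CFP (-0.0211 to 0.748), FURIN (-0.0144 to 0.0621), VKORC1 (-0.0357 to 0.0263) and NFKB1 (-0.00552 to 0.0727). The cause was not tested. Depth is unknown, so precision at low counts could not be stated.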

Other observations

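C4A-AS1 and C4B-AS1, the antisense genes inside the C4 copies, had the same value as each other in each of the 6 libraries (15.6, 10.1 and 22.8 in siMNX1 replicates 1 to 3 and 7.65, 5.61 and 7.61 in siNT replicates 1 to 3). Among all genes measured, 14 shared all 6 values with another gene. C4A and C4B themselves were not equal in any library.

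Among 51 cascade genes outside the set, SERPIND1, which encodes heparin cofactor II, had the largest log2 fold change (1.68) without a call (limma, adjusted p = 0.0901), from counts of 22.4 ± 6.12 in siMNX1 cells and 6.94 ± 4.01 in siNT cells. F3, which encodes tissue factor, averaged 316 ± 44.1 in siMNX1 cells and 416 ± 19.0 in siNT cells (log2 fold change -0.41, limma, adjusted p = 0.0808), and F2, which encodes prothrombin, averaged 105 ± 4.12 in siMNX1 cells and 75.5 ± 6.77 in siNT cells (log2 fold change 0.47, limma, adjusted p = 0.121). For these 3 genes the siMNX1 libraries lay wholly on 1 side of the siNT libraries. All 3 were picked after their values were seen.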
